A study of Mus musculus with 7 samples.

Results

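The genes described here are the interleukin-1 (IL-1) family ligands and receptors of the mouse heart. They were taken by symbol from a table of read counts per gene, where all 9 of the 9 members were found among 20343 genes. RNA was measured in the apical myocardium of 7 NSG-DR1 mice, labelled as strain NSG-DRB1*0101. This immunodeficient background carries a human HLA-DR1 transgene, lacks mature mouse T, B and NK cells and keeps myeloid cells. Human CD4+ T cells had been given to 3 of them, called transferred, 6 weeks before tissue was taken. The treatment of the other 4, the controls, is labelled only as control. The ages and sexes of the mice and the origin of the T cells are not given in the sources used here, and nothing states whether mice shared a litter or a cage. The series title links terminally differentiated CD4+ T cells with inflammation of the ageing myocardium.

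IL-1 alpha and IL-1 beta are cytokines that bind the receptor IL-1R1, which then joins an accessory chain and signals through MyD88 to NF-kB. The family carries its own brakes: the antagonist encoded by Il1rn occupies IL-1R1 without signalling, and IL-1R2 is a decoy that binds IL-1 but lacks the signalling domain. Related receptors serve IL-33 (Il1rl1, also called ST2), IL-36 (Il1rl2) and IL-18 (Il18r1 with Il18rap). Activated monocytes, macrophages and neutrophils are well known producers of IL-1 beta, and IL-1 acts on endothelial cells, fibroblasts and cardiomyocytes in the injured heart.

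The 6 receptor genes lie side by side on the plus strand of chromosome 1 (GRCm38), from position 40084692 to 40551707, in the order Il1r2, Il1r1, Il1rl2, Il1rl1, Il18r1 and Il18rap. Il1rn lies on chromosome 2 (24336860 to 24351491, plus strand), and Il1a (129299609 to 129310186) and Il1b (129364569 to 129371164) lie on its minus strand. All are protein-coding genes, and each count covers the combined exons. No count of a member had a fractional part in any heart. Other annotated genes overlap 4 of the spans. Gm14023 lies opposite Il1a and held 289 counts over the 7 hearts, against 22 for Il1a. Il1bos lies opposite Il1b with 8 counts, Gm16894 opposite Il1r2 with 40 counts, and Gm17970 on the same strand as Il1rl2 with 5 counts. Whether the counting used strand is not given in the sources used here, so reads over such overlaps cannot be assigned with certainty. Gm16894 held 2 counts in the heart with the most Il1r2 counts.

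The table analysed covers chromosomes 1 to 7 and the start of chromosome 8, and the genes for IL-18, IL-33, the IL-1 receptor accessory chain and MyD88 are not analysed here. Column totals ran from 16402179 to 25190560 counts, and levels are in CPM, the usual depth-scaled count, with totals taken over the tested genes and adjusted between hearts by the trimmed mean of M values (TMM). A level of 3 counts corresponded to 0.115 to 0.189 CPM depending on the heart, which covers counting error only. Cardiomyocyte markers such as Tnnt2 and Actc1 were abundant in every heart, at a sum of 87186 to 115462 CPM. Fibroblast markers summed to 1560 to 2079 CPM in control and 1442 to 1892 CPM in transferred hearts, and endothelial markers to 1858 to 2385 and 2021 to 2189 CPM. The endothelial sum, with Kdr as its largest term, does not show single genes. Of 8 tested endothelial markers, 3 lay under 0.05 in edgeR before adjustment (12.4% of all tested genes) and 0 after it. Of these 3, Ackr1 had a log2 fold change of 2.90, Emcn of 0.26 and Tie1 of -0.28. These became 1.93, 0.23 and -0.30 without transferred heart 2. In DESeq2 only Ackr1 of this list was under 0.05 after adjustment (adjusted p = 0.000367). Transferred heart 2 stands apart in its neutrophil markers (S100a8, S100a9, Csf3r, Cxcr2, Clec4d, Clec4e and Mmp9), which summed to 270.5 CPM there, 14.5 and 39.5 CPM in transferred hearts 1 and 3, and 10.02 to 12.9 CPM in control hearts. The label of this mouse also carries a code that begins with other letters than those of transferred hearts 1 and 3, and the labels do not say what the codes mean. Values without this heart are given beside the results it moves most.

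Per length of exon, Il1r1 was the most abundant member by far, followed by the ligand Il1b, while the other ligand, Il1a, was the lowest. The mean over the 7 hearts was 5.9985 CPM per kb for Il1r1, 1.71 for Il1b, 0.930 for Il1rl2, 0.265 for Il1rn, 0.143 for Il18r1 and 0.136 for Il1rl1. The 3 members at the bottom were Il1r2 (0.0720), Il18rap (0.0592) and Il1a (0.0399 CPM per kb), all near what a few reads give. In control hearts Il1r1 ranged from 4.44 to 5.89 CPM per kb and did not overlap the next genes, Il1rl2 (0.638 to 1.32) and Il1b (0.406 to 1.15), which overlapped each other. Below them, the control ranges of Il18r1, Il1rn and Il1rl1 overlapped, as did those of Il1r2, Il18rap and Il1a. In transferred hearts Il1b ranged from 1.19 to 5.82 CPM per kb, and its value in transferred heart 2 lay inside the range of Il1r1 over those hearts (4.47 to 9.55). Within transferred heart 2 itself Il1r1 was at 9.55 CPM per kb.

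**Figure D1:**
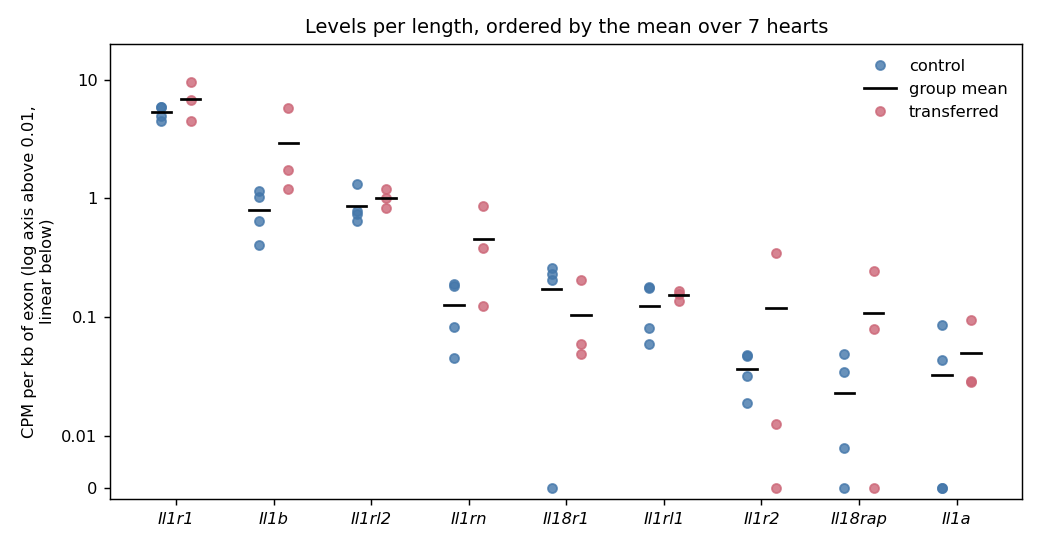
Levels of the 9 members in CPM per kb of combined exon, on an axis that is logarithmic above 0.01 and linear below. Each point is a heart (4 control, 3 transferred), the black line is the group mean, and genes are ordered by the mean over all 7 hearts, from Il1r1 at 5.9985 to Il1a at 0.0399 CPM per kb.

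Transferred and control hearts were compared with the edgeR quasi-likelihood test over 7667 genes, of which 6 were members. Il1a, Il1r2 and Il18rap had too few counts to enter that test. None of the 6 tested members had an adjusted p-value under 0.05, where 0.235% of all tested genes (18) did, 0.13% being higher and 0.104% lower in transferred hearts. Before adjustment 2 members, Il1b and Il1rn, had p-values under 0.05, both with higher values in transferred hearts. Of all tested genes 12.4% did so, 7.17% higher and 5.27% lower. Without transferred heart 2 no member did, beside 9.06% of all genes then tested. The log2 fold change was above 0 for 5 of 6 members (49.7% of all tested genes) and above 1 for 2 of 6 (2.28% of all tested genes). The median log2 fold change of the 6 was 0.33, beside -0.002 over all tested genes. Without transferred heart 2, 5 of 6 were above 0 and 0 of 6 above 1 (50.7% and 1.87% of all genes then tested), and the median was 0.17. In bulk tissue, a change in the number of cells of a type and a change in RNA per cell cannot be told apart.

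Il1b, the ligand with the larger count, had a log2 fold change close to that of Il1rn. Control hearts 1 to 4 held 16, 51, 32 and 31 counts, or 0.778, 2.19, 1.23 and 1.96 CPM, and transferred hearts 1 to 3 held 45, 237 and 67 counts, or 2.28, 11.1 and 3.31 CPM. Every transferred heart was above every control heart, but transferred heart 1 only just, and transferred heart 2 held most of the counts of its group. The groups failed to overlap in 1 of the 6 tested members, Il1b, beside 11.2% of all tested genes (5.99% higher and 5.22% lower in transferred hearts). With scaling by total counts the lowest transferred value was 2.15 and the highest control value 2.16 CPM, so the groups then met.

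The mean of Il1b was 1.54 ± 0.653 CPM (SD, n = 4) in control and 5.58 ± 4.85 CPM (SD, n = 3) in transferred hearts. This is a log2 fold change of 1.86 (standard error 0.56, edgeR unadjusted p = 0.00882, adjusted p = 0.221). DESeq2, run as an alternative, called Il1b (log2 fold change 1.86, adjusted p = 0.0232) and was the more permissive test, calling 3.29% of the same genes (2.5% higher in transferred hearts). In the other alternatives run, the adjusted p-value of Il1b was 0.0953 to 0.595. That highest value came from leaving out transferred heart 2, where the log2 fold change was 0.87.

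The mouse identifiers of control heart 1 and transferred heart 1 begin with letters, and those of the other mice with numbers, which the labels do not explain. Between the lettered pair, Il1b was 2.93 times higher in the transferred heart (2.28 against 0.778 CPM). Among the 5 numbered hearts the mean was 4.03 times higher (7.23 against 1.79 CPM). The lettered pair has 1 heart a group and allows no test. Both strata thus gave the same direction for Il1b. They did so too for Il1a, Il1rn, Il1rl2 and Il18r1, but gave opposite directions for Il1r1, Il1r2, Il1rl1 and Il18rap, some of these on few counts.

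The antagonist Il1rn was scarcer than Il1b in every heart. Control hearts held 11, 12, 6 and 2 counts (0.535, 0.516, 0.230 and 0.126 CPM), and transferred hearts held 21, 51 and 7 counts (1.06, 2.40 and 0.346 CPM). Transferred hearts 1 and 2 were above all control hearts, while transferred heart 3 lay inside the control range. The group means were 0.352 ± 0.205 CPM (SD, n = 4) and 1.27 ± 1.04 CPM (SD, n = 3). The log2 fold change of 1.81 (standard error 0.66, edgeR unadjusted p = 0.0205, adjusted p = 0.300) became 0.96 without transferred heart 2.

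Because agonist and antagonist compete for one receptor, their counts were also set against each other within each heart, a ratio that no scaling can move. The log2 ratio of Il1rn to Il1b was -0.52, -2.04, -2.32 and -3.66 in control hearts and -1.08, -2.21 and -3.17 in transferred hearts. The groups lay across each other, with control heart 1 and transferred heart 1 at the antagonist-rich end. The means were -2.14 ± 1.29 (SD, n = 4) and -2.15 ± 1.05 (SD, n = 3), a difference of -0.02 (exact two-sided permutation p = 1). With a heart left out, the difference ran from -0.55 without transferred heart 1 to 0.52 without control heart 1.

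Il1a, the other agonist, was at the limit of detection. Control hearts held 0, 7, 4 and 0 counts and transferred hearts 2, 7 and 2 counts. Each group held 11 counts in all (exact two-sided permutation p = 0.571 for the CPM). A difference in Il1a was not detectable at this depth.

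The 150 bases before the listed start of Il1b and the most upstream listed start of Il1rn are shown because these 2 members had log2 fold changes above 1. They are taken from RefSeq (GRCm38.p6), 5′ to 3′, on the gene's own strand. Capitals mark the word TATAAA within the last 50 bases, which 2.63% of 32851 listed promoters hold there. The windows are chr2:129371140-129371289 on the minus strand for Il1b and chr2:24336710-24336859 on the plus strand for Il1rn. Il1rn has further listed starts downstream, with windows that end at positions 24345290 and 24345370, and these are not printed.
Il1b: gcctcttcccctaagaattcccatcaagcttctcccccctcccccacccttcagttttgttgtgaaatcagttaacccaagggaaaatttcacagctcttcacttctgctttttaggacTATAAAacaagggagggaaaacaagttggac
Il1rn: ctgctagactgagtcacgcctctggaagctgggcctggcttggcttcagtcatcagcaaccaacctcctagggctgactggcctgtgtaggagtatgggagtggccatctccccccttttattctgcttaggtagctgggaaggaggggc
The word begins 31 bases before the listed start of Il1b and is not in that window of Il1rn. The span of Il1b in the count table reaches 25 bases further upstream than this listed start, so the last 25 bases printed lie inside that span. All 9 members had at least 1 of 15 listed promoters. In the 250 bases before each start, the NF-kB word GGGANNTTCC (both strands) was in 0 of the 15 and in 1.21% of all promoters. The C/EBP word TTGCNNAA (both strands) was in 3 of the 15, those of Il1r1, Il1rl2 and Il1rl1, and in 9.56% of all promoters. A match is a match of letters only, and other spellings of these sites were not searched.

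**Figure D2:**
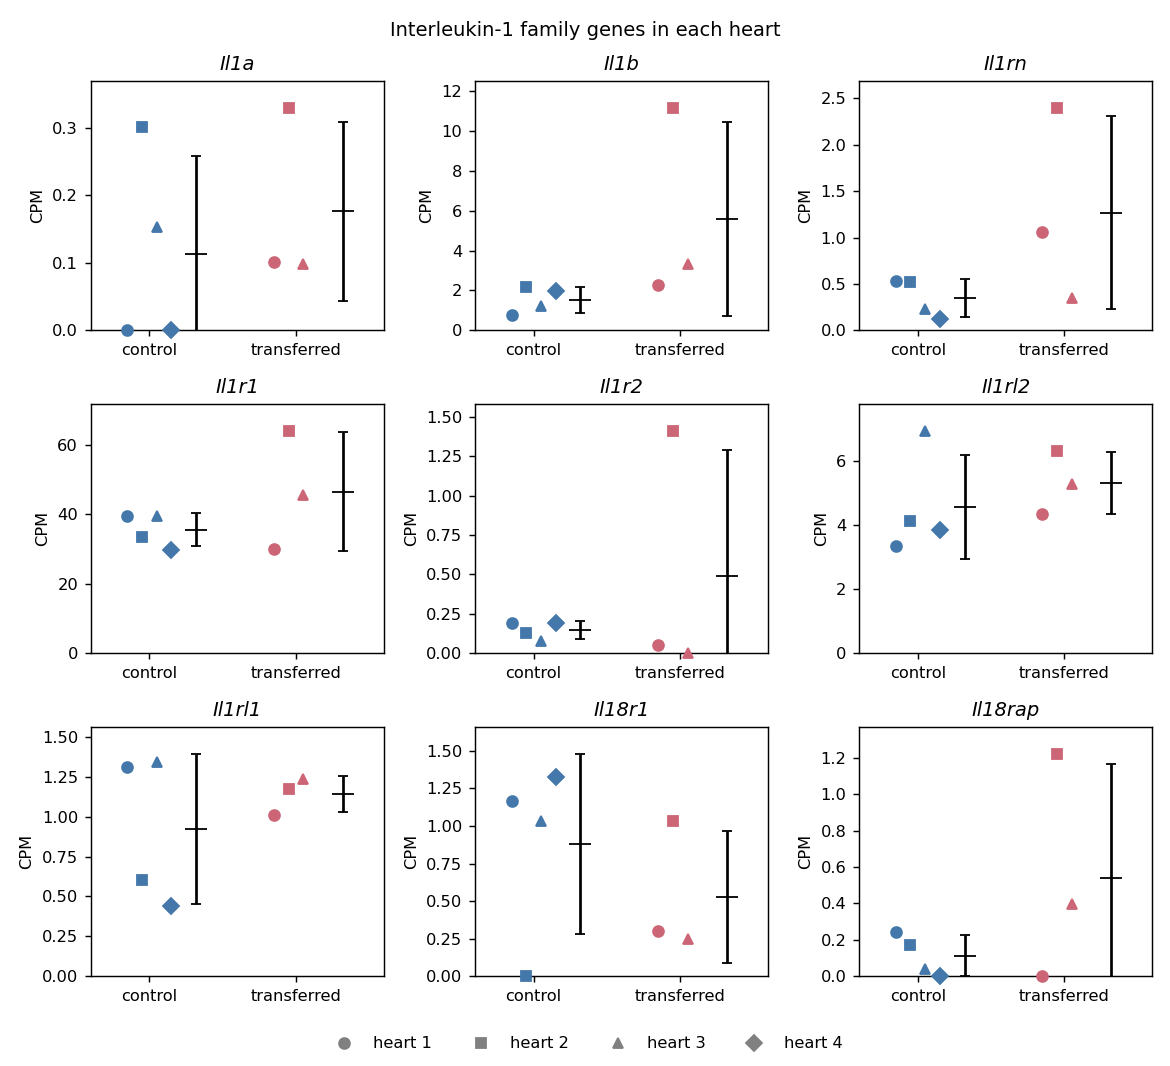
CPM of each member in each heart, with 1 panel per gene and its own axis from 0. Symbols mark hearts 1 to 4 within a group, and the black mark and bar give the group mean and SD (control n = 4, transferred n = 3), with bars cut at 0. In 8 of the 9 panels transferred heart 2 is the highest transferred heart, the exception being Il1rl1.

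Among the receptors, the signalling receptor Il1r1 had the most counts in every heart. Control hearts held 39.5, 33.4, 39.5 and 29.8 CPM, from 473 to 1030 counts, and transferred hearts held 29.99, 64.1 and 45.6 CPM. Transferred hearts 2 and 3 were above all control hearts and transferred heart 1 was near the lowest control heart. The means were 35.6 ± 4.77 CPM (SD, n = 4) and 46.6 ± 17.1 CPM (SD, n = 3). Their log2 fold change was 0.39 (standard error 0.22, edgeR adjusted p = 0.548).

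The fold of Il1r1 depended on which transferred heart was counted. Without transferred heart 1 the log2 fold change was 0.62 (edgeR adjusted p = 0.122), and without transferred heart 2 it was 0.09 (edgeR adjusted p = 0.940). Transferred heart 1 was 0.759 times control heart 1, the other mouse with a lettered identifier, while among the numbered hearts the mean was 54.8 CPM in the transferred and 34.3 CPM in the control group. The identifier strata therefore gave opposite directions for Il1r1. Without the lettered hearts the log2 fold change was 0.68 (edgeR adjusted p = 0.172).

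The decoy receptor Il1r2 was nearly absent except in 1 heart. It had 4, 3, 2 and 3 counts in control hearts and 1, 30 and 0 counts in transferred hearts. Transferred heart 2 held 1.41 CPM, with an exact 95% Poisson interval of 0.952 to 2.01 CPM that covers counting error and not variation between mice. Transferred hearts 1 and 3 were below every control heart. The group difference in CPM was 0.340 (exact two-sided permutation p = 0.657), and it was -0.122 without transferred heart 2.

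Set against the signalling receptor within each heart, the log2 ratio of Il1r2 to Il1r1 was -7.50, -7.80, -8.69 and -7.08 in control hearts and -8.63, -5.48 and -10.85 in transferred hearts. The transferred hearts held both the highest and the lowest ratio of the 7. The difference of the means was -0.55 (exact two-sided permutation p = 0.686). It was -1.97 without transferred heart 2 and turned to 0.71 without transferred heart 3. Transferred heart 3 had 0 decoy counts, so its ratio is set by the 0.5 counts added to each gene, and with 2 counts added the difference was -0.06. Signalling receptor counts exceeded decoy counts in every heart.

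The IL-36 receptor Il1rl2 overlapped fully between groups. Its values were 3.36, 4.13, 6.95 and 3.85 CPM in control and 4.36, 6.30 and 5.29 CPM in transferred hearts. The highest of the 7 was a control heart. The fit gave a log2 fold change of 0.21 (standard error 0.27, edgeR adjusted p = 0.818). It was 0.07 without transferred heart 2 and 0.49 without control heart 3, its highest heart (edgeR adjusted p = 0.971 and 0.400). Of the IL-36 ligands, Il1f6 and Il1f8 were listed at 0 in every heart, as were the receptor antagonist Il1f5 and the related cytokine Il1f10. Il1f9, the gene of IL-36 gamma, was under the expression filter with 8, 0, 2 and 1 counts in control and 0, 47 and 9 counts in transferred hearts, again most in transferred heart 2. It was singled out after its values were seen.

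The IL-33 receptor Il1rl1 differed least from heart to heart in the transferred group. Control hearts held 1.31, 0.602, 1.34 and 0.442 CPM and transferred hearts 1.01, 1.18 and 1.24 CPM. All 3 transferred values lay inside the control range. The fit gave a log2 fold change of 0.28 (standard error 0.42, edgeR adjusted p = 0.842), and leaving out each heart in turn gave 0.07 without control heart 4 to 0.52 without control heart 3. The gene makes a membrane and a soluble form, which counts per gene do not separate. Mast cells are a known site of this receptor, and their markers summed to 51.9 to 62.1 CPM in control and 40.5 to 62.1 CPM in transferred hearts. Gata2 was the largest term of that sum, at 32.3 to 41.4 CPM in control and 27.9 to 36.0 CPM in transferred hearts. Kit was at 12.1 to 18.2 and 5.73 to 9.73 CPM, lower without overlap, as 5.22% of all tested genes were. None of the 4 tested markers of this list passed the edgeR threshold, and they differed in direction: the log2 fold change was -0.13 for Gata2, -0.75 for Kit, -1.36 for Cpa3 and 0.78 for Hdc. Before adjustment Kit, Cpa3 and Hdc had p-values under 0.05. Without transferred heart 2 the value of Hdc was 0.26 and only Kit and Cpa3 had. With DESeq2 on all hearts 1 of the 4 mast cell markers, Kit, passed (adjusted p = 0.0434), beside 3.29% of all tested genes. The part of these cells in the level of Il1rl1 was not tested.

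The chains of the IL-18 receptor showed different patterns over the hearts. Il18r1, the ligand-binding chain, had 24, 0, 27 and 21 counts in control hearts (1.17, 0, 1.04 and 1.33 CPM) and 6, 22 and 5 counts in transferred hearts (0.304, 1.03 and 0.247 CPM). The group means were 0.882 ± 0.600 CPM (SD, n = 4) and 0.529 ± 0.439 CPM (SD, n = 3). The fit gave a log2 fold change of -0.70 (standard error 0.91, edgeR adjusted p = 0.821), and -1.63 without transferred heart 2.

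Control heart 2 had 0 counts of Il18r1 and the other control hearts 21 to 27. The exact 95% Poisson upper bound for control heart 2 was 0.159 CPM, which covers counting error and not variation between mice. Without control heart 2 the log2 fold change was -1.13 (edgeR adjusted p = 0.623). Leaving out each heart in turn gave -1.63 to -0.36, while limma-voom on all hearts gave 0.16, the opposite direction.

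Il18rap, the accessory chain that IL-18 signalling needs, had 5, 4, 1 and 0 counts in control hearts and 0, 26 and 8 counts in transferred hearts. Transferred heart 2 held 76.5% of the group's counts, at 1.22 CPM (exact 95% Poisson interval 0.799 to 1.79). The group difference in CPM was 0.426 (exact two-sided permutation p = 0.2), and 0.0842 without transferred heart 2 (exact two-sided permutation p = 0.6). Of the mouse T, NK and innate lymphoid cell markers, cells that also carry this receptor, Ncr1 and Klrb1c were at 0 in every heart. The sum of that list, with Cd28 as its largest term, was 30.7 to 39.5 CPM in control and 29.4 to 38.0 CPM in transferred hearts. None of the 4 tested passed the threshold, with log2 fold changes of -1.06 for Cd247, -0.13 for Cd28, 0.35 for Cd4 and 0.26 for Gata3, and before adjustment Cd247 alone had a p-value under 0.05. Without transferred heart 2 these values were -0.96, -0.22, 0.12 and -0.08, so that Gata3 turned direction. The strain lacks mature mouse T and NK cells, and which cells gave the counts of this list was not tested.

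**Figure D3:**
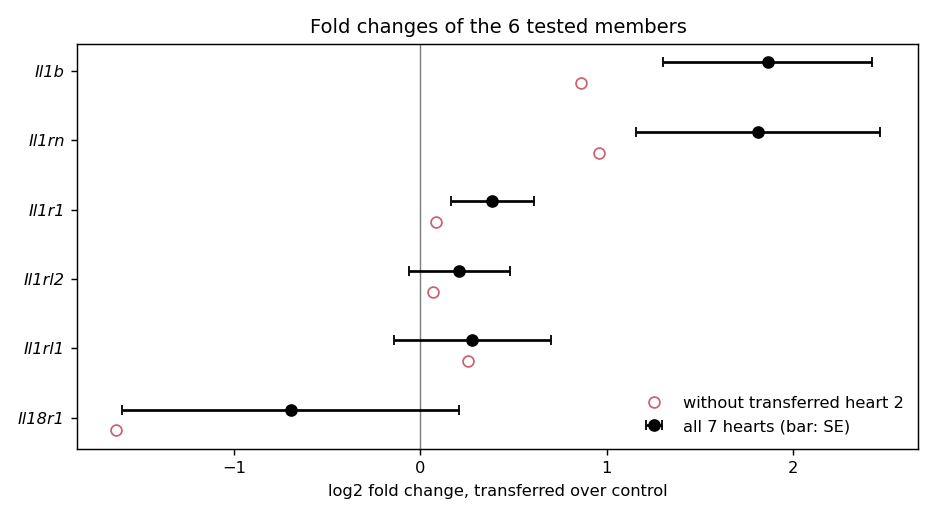
Log2 fold change of transferred over control hearts for the 6 members that entered the edgeR test, with all 7 hearts (filled points, bars are standard errors) and without transferred heart 2 (open points). Il1b moves from 1.86 to 0.87, Il1rn from 1.81 to 0.96 and Il1r1 from 0.39 to 0.09 when that heart is left out.

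Transferred heart 2 carried much of what these genes showed. It was the highest of the 7 hearts for 3 of the 6 tested members (17.5% of all tested genes) and for each of the 3 members under the filter. It was the highest of the 3 transferred hearts for 5 of the 6 tested members (30.7% of all tested genes). It held 67.9% of the transferred counts of Il1b, 64.6% of those of Il1rn and 96.8% of those of Il1r2. Neutrophil markers shared this pattern. All 6 tested neutrophil markers were highest in transferred heart 2, where S100a8 was at 72.3 CPM against 2.13 and 9.64 CPM in transferred hearts 1 and 3. Their sum ran in the order of hearts 2, 3 and 1, as did Il1b and Il1r1, while Clec4d and Il1rn ran in the order 2, 1 and 3.

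The monocyte and macrophage markers summed to 1040, 1149.8 and 782.9 CPM in transferred hearts 1 to 3 and to 432.8 to 642.0 CPM in control hearts. These sums did not overlap between groups. The summed neutrophil markers did not either, but transferred heart 1 (14.5 CPM) was close to the highest control heart (12.9 CPM). Of the most abundant neutrophil markers, S100a9 and Csf3r overlapped between groups and S100a8 did not. C1qb and Mrc1, genes of resident macrophages, passed the threshold among 11 tested markers (edgeR adjusted p = 0.0384 for each), and all 11 had an unadjusted p-value under 0.05. With 1 heart left out 0 to 9 of the 11 passed, 9 without transferred heart 3 and 0 without any other heart. Without transferred heart 2 the median log2 fold change of the list went from 0.93 to 0.84. The neutrophil list went from a median of 2.96 to 1.35, still 6 of 6 above 0, and 0 of its 6 tested genes passed with all hearts (6 had an unadjusted p-value under 0.05). With DESeq2, the more permissive test, 5 of the 6 neutrophil and 11 of the 11 monocyte and macrophage markers passed. The part of either cell type in the levels of Il1b, Il1rn or the decoy receptor was not tested.

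**Figure D4:**
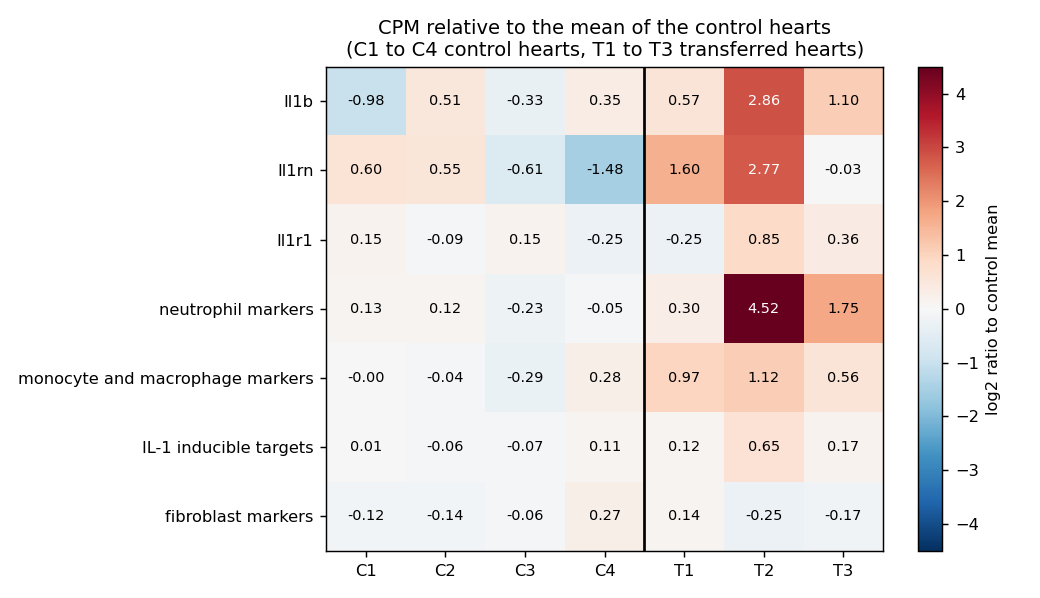
Log2 ratio of CPM in each heart to the mean of the 4 control hearts, for 3 members and for the summed CPM of marker and target lists. Columns are hearts, rows are genes or lists, and colour and printed value give the ratio. In transferred heart 2 Il1b stands at 2.86, Il1rn at 2.77, Il1r1 at 0.85 and the neutrophil markers at 4.52.

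The genes whose profiles over the 7 hearts were most like those of the members were found by Pearson's r of log2 CPM over 7004 genes with a mean of at least 1 CPM, as a description. For Il1b these were Sele, the endothelial selectin (0.982), the tumour necrosis factor receptor Tnfrsf1a (0.981) and the interleukin-4 receptor chain Il4ra (0.978). For Il1r1 they were Zfp428 (0.979), Pnrc2 (0.976) and Ssu2 (0.969). For Il1rl2 they were Morn1 (0.961), Sh3bp2 (0.957) and Lhfp (0.949), and for Il1rl1 Gm38648 (0.981), Btbd1 (0.981) and Tmem245 (0.976). The points share libraries, and a single heart can set such values at this number of hearts.

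Other genes of the pathway were read from lists, as far as the table covers them. Of other family members, the soluble IL-18 inhibitor Il18bp and the inhibitory receptor Sigirr were tested, and 0 of 2 passed, also before adjustment. Il18bp was at 32.9 to 38.2 CPM in control and 33.1 to 45.7 CPM in transferred hearts, and Sigirr at 11.9 to 15.5 and 13.3 to 15.1 CPM. Their log2 fold changes were 0.11 and 0.01 (standard errors 0.12 and 0.13), and 0.20 and 0.01 without transferred heart 2.

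Of 31 listed signalling components between receptor and NF-kB, 9 were in the table and tested, and none passed the threshold. Irak1, Irak4, Rela, Nfkbia and Tnfaip3 are among those not analysed here. The median log2 fold change was 0.04, and -0.02 without transferred heart 2. Before adjustment 1 of 9 had a p-value under 0.05 (12.4% of all tested genes), and 0 without transferred heart 2. It was Relb, an NF-kB subunit, at 28.8 to 35.9 CPM in control and 36.4 to 43.0 CPM in transferred hearts (log2 fold change 0.32, edgeR adjusted p = 0.255, and 0.25 without transferred heart 2). For the adaptor brake Tollip the log2 fold change was -0.10, for Nfkb1 -0.05 and for the kinase Map3k7 0.05.

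In the list for the inflammasome and processing of pro-IL-1 beta, 10 of 20 genes were in the table, and Nlrp3, Casp1 and Gsdmd are among those not analysed here. Of 8 tested, 0 passed, while 2 lay under 0.05 before adjustment, with and without transferred heart 2 (12.4% of all tested genes with it and 9.06% without it). The median log2 fold change was 0.03, and -0.04 without transferred heart 2. The 2 were the adaptor Pycard, which joins inflammasome sensors to caspase-1, and P2rx7, an ATP-gated channel that triggers the NLRP3 inflammasome. Pycard was at 14.5 to 16.7 CPM in control hearts and at 18.6, 29.8 and 20.1 CPM in transferred hearts. P2rx7 was at 11.7 to 13.5 CPM in control hearts and at 14.99, 20.3 and 18.4 CPM in transferred hearts. Both were above all control hearts in each transferred heart, as 5.99% of all tested genes were. The log2 fold changes were 0.59 (edgeR adjusted p = 0.182) and 0.52 (edgeR adjusted p = 0.148), and 0.35 and 0.42 without transferred heart 2. Card9 and Capn2 overlapped between groups (log2 fold changes 0.43 and -0.06).

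The next list holds genes that IL-1 is known to induce, among them Mmp9, which is also in the neutrophil list. Of 15 tested, 14 had a log2 fold change above 0, 7 had an unadjusted p-value under 0.05, all with higher values in transferred hearts, and 0 passed the threshold. Over all tested genes 49.7% were above 0 and 12.4% had an unadjusted p-value under 0.05, 7.17% with higher values. Their median was 0.83, beside -0.002 over all tested genes, and transferred heart 2 was the highest heart for 10 of the 15, beside 17.5% of all tested genes. Without that heart the median was 0.33, 12 of 15 were above 0 (50.7% of all genes then tested) and 5 had an unadjusted p-value under 0.05 (9.06%). Many of these genes also answer to tumour necrosis factor and other signals.

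The adhesion molecule Vcam1 had the smallest p-value of that list. It was at 28.1, 24.2, 24.99 and 30.4 CPM in control and 45.2, 76.7 and 41.5 CPM in transferred hearts, with no overlap (log2 fold change 1.02, edgeR adjusted p = 0.0764, and 0.69 without transferred heart 2). Sele and Selp, the selectins that slow leukocytes on venules, were at most 2.19 and 3.16 CPM in control hearts. Sele was at 2.68, 18.2 and 5.83 CPM in transferred hearts 1 to 3, and Selp at 3.19, 25.5 and 7.16 CPM, so that transferred heart 1 was close to the highest control heart for both. Their log2 fold changes were 2.41 and 2.45 (edgeR adjusted p = 0.161 and 0.201), and 1.34 and 1.24 without transferred heart 2. The neutrophil attractant Cxcl1 was at 0.694 to 1.15 CPM in control hearts and at 1.06, 11.9 and 5.04 CPM in transferred hearts (log2 fold change 2.55, edgeR adjusted p = 0.165, and 1.58 without transferred heart 2), so transferred heart 1 lay among the controls. Ptgs2, Steap4 and Cebpb, which IL-1 also induces, overlapped between groups with log2 fold changes of 0.28, -0.05 and 0.06, and 0.33, -0.10 and -0.23 without transferred heart 2.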

How the data were processed

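The authors deposited a table of unnormalized estimated counts per gene for 7 hearts. Per the submitters' processing notes the tools named are bcl2fastq 2.20.0.422, cutadapt 2.5, STAR 2.7.2b, featureCounts 1.6.4 and DESeq2 1.22.2, with build GRCm38.p6. Counting options are not given in the sources used here. Of the deposited values 4.63% had a fractional part, and all were rounded to whole counts. Complete rows numbered 20343, and a last line that breaks off (1 row) was dropped. The table ends on chromosome 8 at position 25129815, so totals are not library depths. Exon lengths are those per the file headers.

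Genes were filtered with filterByExpr and scaled by TMM in edgeR 4.0.16 (R 4.3.3). They were tested with its quasi-likelihood test (robust), adjusted by Benjamini-Hochberg over all 7667 tested genes with a threshold of 0.05. The procedure was tested on simulated data. Single values were compared by exact permutation over 35 splits, whose smallest p-value is 0.0286. Ratios used counts plus 0.5. Standard errors came from the F statistic. Nothing states that mice were kept or handled separately, so p-values measure the spread between these samples. The members and gene lists were chosen with earlier results of these data known. All 9 members are named. Pathway genes named are those past the threshold, or otherwise the 4 with the smallest p-value, and some list members are named outside that rule. The rule for marker lists was the 3 most abundant tested genes, given here mostly as the list's sum, and for likeness the 3 genes with the highest correlation. Alternatives were other scalings, filters, DESeq2 1.42.0, limma-voom (limma 3.58.1), no robust estimation, the identifier form and left-out hearts.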

Additional observations from a re-analysis of the deposited data

Results flagged for a closer look

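Each member's control group of 4 hearts was checked for a heart far from the other 3 on the log2 CPM scale. Of 9 genes checked 1 was marked, and chance marks about 1 in 20 groups, or 0.45 here. For Il18r1 the gap between control heart 2 and the nearest other control heart was 0.939 of the whole range. That heart had 0 counts, and the others had 24, 27 and 21. Its exact 95% Poisson upper bound, for counting error only, was 0.159 CPM.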

How the results depend on the processing

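The edgeR fit called 18 genes in all. Scaling by total counts gave 35, a filter that keeps every gene with a count 81, and DESeq2 252. No gene passed with limma-voom (907 unadjusted), with the identifier form as covariate (973) or without the letter-prefix hearts (1054). Leaving out a heart gave 0 to 140 genes: 0 without control hearts 1, 2 or 4 or transferred heart 2, 1 without control heart 3, 27 without transferred heart 1 and 140 without transferred heart 3. Members past the threshold were 0 in all settings except DESeq2, with 1 (Il1b). Members with an unadjusted p-value under 0.05 were 2, but 1 with the CPM filter, where Il1rn was not tested, 1 with limma-voom, 3 without the letter-prefix hearts (Il1r1 added), and 0 to 3 with a heart left out. Pathway genes past the threshold were 0, but 6 with DESeq2 (Sele, Selp, Vcam1, Cxcl1, P2rx7 and Pycard), 2 without transferred heart 1 (Sele and Cxcl1) and 1 without transferred heart 3 (Vcam1), a range of 0 to 2 with a heart left out. The log2 fold change of Il18r1 was 0.16 with limma-voom against -0.70, and those of the other 5 tested members kept their direction in every setting that tested them. With a heart left out, the CPM difference ran from -0.0136 to 0.125 for Il1a from -0.122 to 0.583 for Il1r2 and from 0.0842 to 0.696 for Il18rap, each lowest without transferred heart 2. The difference in log2 ratio then ran from -0.55 to 0.52 for Il1rn to Il1b and from -1.97 to 0.71 for Il1r2 to Il1r1. The causes were not tested. No paired analysis was possible because the replicate numbers follow accession order and do not pair mice. Low counts limit what can be said of Il1a, Il1r2 and Il18rap.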
